A study of Homo sapiens with 6 samples.

Results

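The G4PID eCLIP peak list of HEK293T cells was examined here, and every peak of that list was taken, 270 of the 3930 peaks in the series. HEK293T is a human embryonic kidney cell line. G4PID is an artificial biotin ligase built to sit on G-quadruplexes, and its RNA was recovered with an antibody against the HA tag. Other kinds of library stand beside it in the series, eCLIP with an antibody against the splicing factor SF3B4, and input without immunoprecipitation, each of the 3 kinds with 2 libraries. The protocol in the labels has cells receive, by lipofectamine 3000, either the plasmid pIRES2-G4PID-EGFP or pIRES2-miniTurboID-EGFP (the ligase without the quadruplex-directed part), grow for 24 h, and take up 500 µM biotin for 30 min. That text is the same for every library, so it does not settle which plasmid, if any, the SF3B4 and input cells received, and an eCLIP library of the untargeted ligase was not analysed here. All G4PID statements therefore describe RNA near an expressed, tagged fusion protein, set against input.

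The G4PID list has 1 line per peak and no value per library. The spread between the 2 libraries cannot be given, the read depth is unknown, and the identity of the cell line cannot be checked from peaks alone. Each peak carries 2 values of the authors, read from the column order and the ranges as −log10 p and log2 fold over input. The fold is used below only to describe and rank peaks within the G4PID list. Every peak had a log2 fold of at least 3.0, so a gene without a peak is not shown to be unbound. Whether a fold reflects binding or a different amount of the RNA in the input cells was not tested. All coordinates are on hg38.

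G-quadruplexes are four-stranded structures in which guanines from separate runs pair in stacked planes, and they form in RNA as well as in DNA. Runs of G in untranslated and coding parts of messenger RNA and in long noncoding RNA have been studied for effects on translation, processing and localisation. In eCLIP, RNA is crosslinked to protein, cut to short fragments and recovered with the protein, so a peak marks a short stretch of RNA and carries the strand of the RNA.

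The sequences under some peaks show the range of RNA in the list, and they are given first because the composition described later rests on them. They were rebuilt from annotated GENCODE transcripts and are written 5′ to 3′ with runs of at least 3 G in capitals. The first set holds peaks of the genes that rank highest or hold many peaks: MMP3 (coding sequence, minus strand, chr11:102840165-102840251), NEAT1 (exon, plus strand, chr11:65423133-65423319), MALAT1 (exon, plus strand, chr11:65500591-65500682), DHRS2 (intron of the main transcript, plus strand, chr14:23641825-23641996) and CYR61 (coding sequence, plus strand, chr1:85581373-85581409). For NEAT1 the second-highest peak is shown, since the highest is 334 nt wide.
MMP3: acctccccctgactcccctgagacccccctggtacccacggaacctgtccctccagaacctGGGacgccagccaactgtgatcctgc
NEAT1: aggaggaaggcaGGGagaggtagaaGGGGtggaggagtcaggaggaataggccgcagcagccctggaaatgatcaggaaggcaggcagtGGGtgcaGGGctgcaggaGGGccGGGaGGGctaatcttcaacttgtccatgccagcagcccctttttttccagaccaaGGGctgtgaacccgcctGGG
MALAT1: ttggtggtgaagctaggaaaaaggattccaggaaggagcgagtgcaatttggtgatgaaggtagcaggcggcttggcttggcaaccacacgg
DHRS2: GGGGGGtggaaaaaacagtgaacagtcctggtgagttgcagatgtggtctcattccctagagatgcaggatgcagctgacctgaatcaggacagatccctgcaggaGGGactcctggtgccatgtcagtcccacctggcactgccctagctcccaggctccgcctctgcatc
CYR61: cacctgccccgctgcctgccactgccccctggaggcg

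The stretches differed in which base ran in blocks. The NEAT1 peak (log2 fold 7.28) held 9 runs of at least 3 G, with 39.6% G and 21.4% C. The MALAT1 peak (5.34) was rich in purines with G in pairs, 38.0% G and 15.2% C, and had 0 runs of 3 G. The MMP3 peak (7.71) and the CYR61 peak (6.17) were instead C-rich, with 46.0% and 51.4% C, and had 1 and 0 such runs. The DHRS2 peak (7.10) had nearly equal G and C, 29.7% and 28.5%.

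A second set shows further coding peaks and was chosen after their values were seen, because PRNP and SLC1A5 hold closely spaced G runs and EGR1 is a C-rich contrast. They are PRNP (coding sequence, plus strand, chr20:4699334-4699465), SLC1A5 (coding sequence, minus strand, chr19:46787712-46787750), KRT81 (coding sequence, minus strand, chr12:52286288-52286325) and EGR1 (coding sequence, plus strand, chr5:138467880-138467970).
PRNP: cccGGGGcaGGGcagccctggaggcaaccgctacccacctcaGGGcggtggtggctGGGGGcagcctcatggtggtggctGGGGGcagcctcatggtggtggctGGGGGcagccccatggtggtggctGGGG
SLC1A5: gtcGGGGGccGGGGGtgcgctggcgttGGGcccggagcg
KRT81: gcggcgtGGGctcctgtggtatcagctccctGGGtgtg
EGR1: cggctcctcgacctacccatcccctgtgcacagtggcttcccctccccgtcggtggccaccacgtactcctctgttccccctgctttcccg

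PRNP encodes the prion protein, and its single peak (log2 fold 5.86) covered repeated units of the coding sequence, with 7 runs of at least 3 G in 132 nt and 47.0% G. SLC1A5, which encodes a glutamine transporter, had 3 such runs in 39 nt (log2 fold 4.12) and KRT81, which encodes a hair keratin, 2 in 38 nt (5.92). EGR1, which encodes an early-response zinc finger transcription factor, had 0 in 91 nt with 48.4% C (4.86).

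Small structured RNAs were also under peaks. The only peak that overlapped a microRNA hairpin lay on MIR222 (minus strand, chrX:45747033-45747058, log2 fold 4.92) and enclosed mature miR-222-3p, reaching 3 nt beyond its 3′ end and 2 nt beyond its 5′ end. It is shown with the mature sequence from RefSeq (GRCh38.p14), whose capitals mark the seed, bases 2 to 8. A U1 small nuclear RNA copy annotated as RF00003 (minus strand, chr1:144560756-144560829, log2 fold 4.81) was covered over its bases 1 to 74 and is shown because 4 of the 5 peaks over small nuclear RNA genes lay on U1 copies.
MIR222 peak: gcagctacatctggctactGGGtctc
miR-222-3p: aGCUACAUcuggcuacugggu
U1 copy: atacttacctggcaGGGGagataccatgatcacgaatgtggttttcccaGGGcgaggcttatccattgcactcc

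The bound RNAs were few and unevenly filled. The 270 peaks fell in 127 genes, with 1 peak outside any annotated gene of its strand. Protein-coding genes were 99 of these, which is 0.496% of all annotated protein-coding genes, and genes of every type made 0.216% of the annotation. In the SF3B4 list the same shares were 8.87% and 3.21%. A single peak was found in 83 genes, 2 peaks in 16 and 3 or more in 28. The 16 genes with at least 4 peaks held 118 peaks, and the leading 4, NEAT1, DHRS2, MALAT1 and PLEC, held 59. Peaks were 61 nt wide at the median (21 to 334 nt) and covered 18745 nt in all. The log2 fold had a median of 4.92, with quartiles of 4.12 and 5.46 and a maximum of 9.97.

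**Figure D1:**
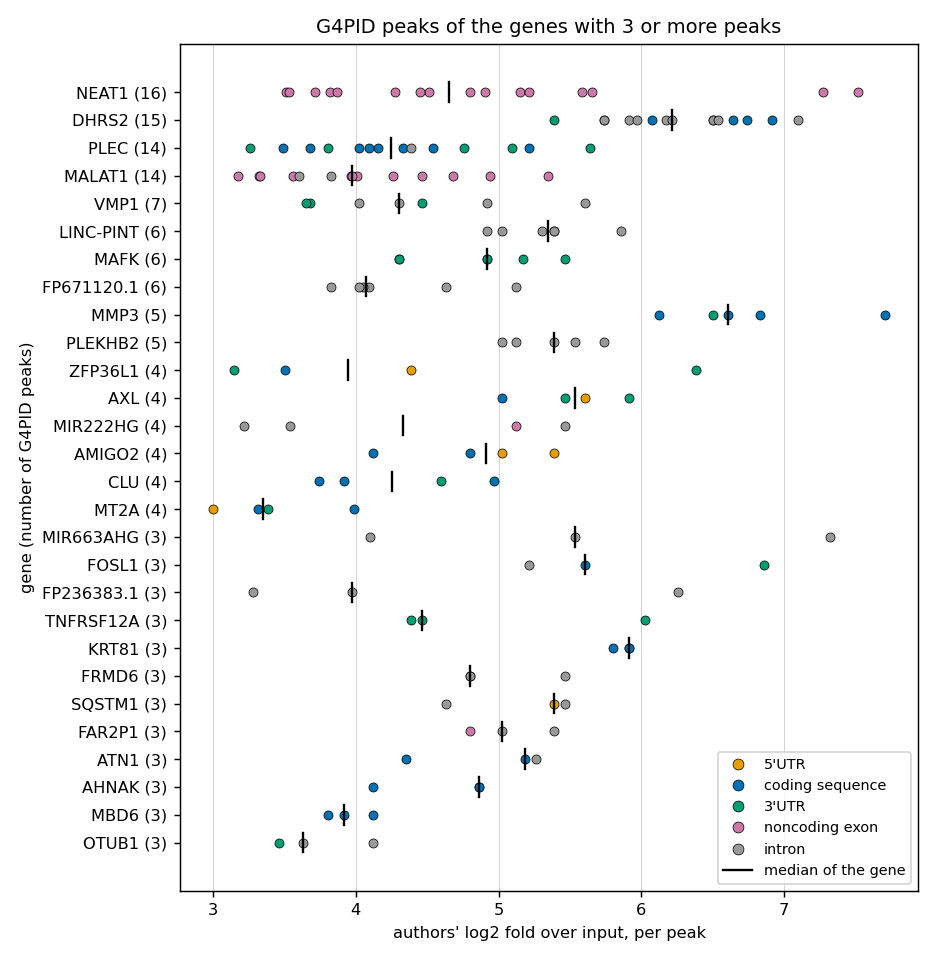
Each point is 1 G4PID peak of a gene with 3 or more peaks, placed by the authors' log2 fold over input and coloured by transcript region, and the bar is the gene's median. MMP3 and DHRS2 lie to the right (medians 6.61 and 6.22), MT2A to the left (3.35), and NEAT1 spans 3.51 to 7.52.

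Genes with many peaks differed in level as well as in number. MMP3, which encodes the matrix-degrading enzyme stromelysin, had 5 peaks between 6.12 and 7.71, and the 15 of DHRS2, a short-chain dehydrogenase gene, lay between 5.39 and 7.10. The ranges of both lay wholly above that of MT2A, which encodes a metal-binding metallothionein and had 4 peaks between 3.0 and 3.99. NEAT1, the scaffold RNA of paraspeckles, had the widest range of the genes with at least 4 peaks, 3.51 to 7.52, with 2 peaks above 7 and the other 14 at 5.66 or below. MALAT1, a resident of nuclear speckles, ranged from 3.17 to 5.34, and PLEC, the gene of the linker protein plectin, from 3.26 to 5.64. The 4 peaks of ZFP36L1, which encodes a protein that promotes decay of AU-rich messenger RNA, stood at 3.14, 3.50, 4.39 and 6.39, so the rank of this gene among the highest rests on 1 peak.

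Genes with 1 or 2 peaks also reached the top of the ranking. The single peak of MTRNR2L1 led the list at 9.97. GCNT1, which encodes a glycosyltransferase of mucin-type sugar chains, followed with a single intron peak of 30 nt at 6.61. The pseudogene CYP4F32P had 1 intron peak at 6.57, and PTPRN2, which encodes a phosphatase-like receptor of secretory granules, 1 of 27 nt at 6.39. FLNC, which encodes the actin-crosslinking protein filamin C, had 2 peaks at 6.43 in an intron and 6.26 in the 3′UTR. TCF25 had 2 intron peaks at 6.35 and 5.30, and AC012617.1, a long noncoding RNA gene, 1 at 6.30. The authors' −log10 p did not follow the same order. It reached its maximum of 400 at 19 peaks, of which 12 were in MALAT1, 4 in NEAT1, and 1 each in the U1 copy RNU1-88P, in mitochondrial 16S ribosomal RNA and outside annotated genes on chromosome 21. A further 29 peaks shared the value 15.66, among them those of MTRNR2L1, GCNT1 and the highest of MMP3, so this value does not rank them.

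Genes that do not code for protein made up 28 of the 127 genes and 78 of 269 assigned peaks, 29% (95% Wilson interval 23.9 to 34.7%). The share was 4.92% in the SF3B4 list, which gives an odds ratio of 7.90 (adjusted p = 1.38e-32 by a two-sided Fisher's exact test, adjusted over 9 comparisons between the lists by the method of Benjamini and Hochberg). NEAT1 and MALAT1 carried 30 of these peaks. Without them 48 of 239 peaks remained and the odds ratio was 4.89, and with 1 peak per gene it was 4.43. The units of this and the following tests are peaks or genes of 1 list per antibody, and peaks of 1 gene share their RNA. The labels do not say which input library served which list, so the lists may share input.

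Long intergenic noncoding RNA genes held 57 peaks in 12 genes. After NEAT1 and MALAT1 came LINC-PINT, a long noncoding RNA induced by p53, with 6 intron peaks between 4.92 and 5.86, and FP671120.1, also with 6 (3.83 to 5.12). MIR222HG, the host transcript of miR-221 and miR-222, had 4 peaks at 3.22, 3.54, 5.12 and 5.46. PVT1, the long noncoding neighbour of MYC, had 2 intron peaks at 3.88 and 4.02. Of 29 well-known nuclear and other long noncoding RNAs listed, NEAT1, MALAT1 and PVT1 had a G4PID peak (10.3%, beside 0.216% of all annotated genes), while 9 had an SF3B4 peak (31.0%, beside 3.21%). Antisense genes had 3 peaks, led by AL138828.1 at 5.39. Pseudogenes of all kinds had 9 peaks, with CYP4F32P at 6.57, AC073464.1 at 5.80, AC141557.1 at 5.61, TUFMP1 at 5.54 and FAR2P1 at 5.39 as the highest of their kinds. Pseudogenes resemble their parent genes, and no source used here says how reads matching both were handled.

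Ribosomal RNA accounted for part of the peaks filed under long intergenic genes. All 6 FP671120.1 peaks and all 3 FP236383.1 peaks lay within RefSeq copies of the 45S ribosomal RNA precursor on chromosome 21, RNA45SN2 and RNA45SN3. Of these 9 peaks, 4 lay in the 5′ external spacer, 2 in the second internal spacer and 3 in 28S ribosomal RNA. Spacers are cut away during ribosome assembly in the nucleolus, so a spacer peak marks precursor RNA. The highest, at 6.26, ended 861 nt before 18S ribosomal RNA in RNA45SN3 (chr21:8391730-8391804), and its neighbour 4 nt away stood at 3.28. The tenth chromosome 21 peak was the one without a gene (chr21:8253061-8253085, 25 nt, log2 fold 6.19) and lay 756 nt before the RefSeq 18S copy RNA18SP5. Copies of this precursor are near-identical, so the assignment of these peaks to a copy is uncertain.

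Mitochondrial 16S ribosomal RNA and its nuclear look-alikes were bound in different parts. The peak in MT-RNR2, the mitochondrial gene itself, covered bases 535 to 595 of 1559 at a log2 fold of 3.20. Of 11 nuclear MTRNR2L genes, whose sequence derives from mitochondrial 16S, 3 had a peak (27.3%, beside 0.496% of all protein-coding genes). The 9.97 peak of MTRNR2L1 aligned to bases 1311 to 1379 with 68 of 69 identical, that of MTRNR2L8 (4.92) to bases 589 to 623 with 34 of 35, and that of MTRNR2L12 (3.77) to bases 296 to 370 with 74 of 75. The 4 peaks thus fell on 4 stretches of the 16S sequence, of which only those of MT-RNR2 and MTRNR2L8 touched each other. Of 37 annotated mitochondrially encoded RNAs, only MT-RNR2 had a peak (2.7%, beside 0.216% of all annotated genes). Whether the reads under the look-alikes came from mitochondria was not tested.

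Small nuclear RNA genes held 5 peaks. On copies of U1, the small nuclear RNA that pairs with 5′ splice sites, RNU1-88P stood at 5.49 (up to base 66), RF00003 at 4.81 (bases 1 to 74), RNU1-136P at 3.16 (bases 61 to 102), and RNU1-67P in an intron of SLC25A43 at 3.45 (bases 54 to 102). The fifth lay on the U6 copy RNU6-40P (5.02). The 2 peaks that began at the 5′ end of U1 had higher values than the 2 further in. U1 copies are near-identical, so their assignment to a copy is uncertain. An intron peak of EIF4A2, which encodes an RNA helicase of translation initiation, lay wholly within an annotated small nucleolar RNA, at its bases 36 to 87 (4.43).

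MicroRNA transcripts were seen mostly outside the hairpins. Within 3000 nt of a RefSeq microRNA, hairpin or mature sequence, lay 17 peaks, of which the MIR222 peak alone overlapped one. All 7 peaks of VMP1, which encodes a membrane protein of autophagy, lay 421 to 2938 nt upstream of the miR-21 hairpin, at the 3′ end of a gene of 135064 nt over a span of only 2595 nt. The highest VMP1 peak (5.61) was 1893 nt upstream. The 3 peaks of MIR663AHG surrounded miR-663a. The one 137 nt downstream of the mature sequence stood at 5.54, and those 1033 and 1278 nt upstream at 4.10 and 7.32. Whether the reads under these 3 peaks also matched other places in the genome was not tested. Of 1943 annotated microRNA genes and hosts, 3 had a G4PID peak, MIR663AHG, MIR222HG and MIR222, a share of 0.154% near the 0.216% of all annotated genes.

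Among protein-coding genes, several regulators, cytoskeletal genes and genes of adhesion had peaks. These gene lists were drawn up with earlier results of the same data known, so their counts describe the list and carry no test. Of 33 AP-1 and early-response regulators, 6 had a peak (18.2%, beside 0.496% of all protein-coding genes), with 17 peaks in all. FOSL1, which encodes a Fos-family partner of Jun in AP-1, led with 6.86 in the 3′UTR, 5.61 in coding sequence and 5.22 in an intron. MAFK, which encodes a small Maf protein, had 6 peaks from 4.30 to 5.46, of which 5 were in the 3′UTR. ERF, which encodes an ETS-domain repressor, had 2 (4.92 and 4.68), EGR1 1 (4.86) and FOSL2 1 in the 5′UTR (4.80). In the SF3B4 list 0 of the 33 had a peak, where 8.87% of all protein-coding genes had one.

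Of 24 annotated target genes of YAP and TAZ, the coactivators at the end of the Hippo pathway, 6 had a G4PID peak (25%), with 11 peaks, and 0 had an SF3B4 peak, beside 0.496% and 8.87% of all protein-coding genes. CYR61 and CTGF, which encode secreted matricellular proteins, each had 2 coding peaks, at 6.17 and 5.22 and at 5.12 and 5.02. AXL, which encodes a receptor tyrosine kinase, had 4 peaks, 5.61 in the 5′UTR, 5.02 in coding sequence, and 5.92 and 5.46 in the 3′UTR. ANKRD1, which encodes an ankyrin repeat protein first known from heart muscle, had 1 intron peak at 5.46. GADD45A, which encodes a protein of growth arrest and the DNA damage response, and CRIM1 had 1 each in the 5′UTR, at 4.86 and 4.80.

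The cytoskeletal list of 41 genes had 6 with a peak (14.6%, beside 0.496% of all protein-coding genes) and 24 peaks, of which PLEC held 14. KRT81 had 3 peaks at 5.80, 5.92 and 5.92, within 270 nt around its stop codon. AHNAK, which encodes a giant scaffold protein, had 3 coding peaks at 4.12, 4.86 and 4.86 within 512 nt of its long coding sequence. TPM2, which encodes a tropomyosin, had 1 at 5.02 and FLNA, which encodes filamin A, 1 at 3.49. In this list SF3B4 had peaks in 7 genes (17.1%, beside 8.87% of all protein-coding genes).

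The matrix and adhesion list of 36 genes had 5 with a peak (13.9%, beside 0.496% of all protein-coding genes) and 16 peaks. Below MMP3 stood ITGA3, which encodes an integrin subunit of laminin receptors, with 5.46 in coding sequence and 5.02 in the 3′UTR. AMIGO2, which encodes an adhesion protein with leucine-rich repeats, had 2 peaks in the 5′UTR at 5.39 and 5.02 and 2 in coding sequence at 4.80 and 4.12. CD44, which encodes the hyaluronan receptor, had 1 in the 5′UTR at 5.12, and CLU, which encodes a secreted chaperone, 4 between 3.74 and 4.97. In the SF3B4 list 4 of the 36 had a peak (11.1%, beside 8.87% of all protein-coding genes).

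The remaining lists are given for completeness. With 0.496% of all protein-coding genes holding a G4PID peak, a count of 0 in such lists is near the background, and nothing is read from it. Cytosolic ribosomal protein genes had a G4PID peak in 0 of 84 cases and an SF3B4 peak in 65, and hnRNP and SR protein genes in 0 of 39 and 25. Of all protein-coding genes, 8.87% had an SF3B4 peak. Translation factors had 2 of 71 (2.82%), EIF4A2 and EEF1D (2 intron peaks at 4.39 and 4.33). Proteins that bind or unwind quadruplexes had 2 of 33 (6.06%), EIF4A2 again and DHX36, whose product unwinds quadruplexes and whose 54 nt coding peak stood at 4.61. Stress and chaperone genes had 1 of 30 (3.33%), SQSTM1, which encodes an autophagy receptor (3 peaks at 4.63, 5.39 and 5.46). Solute carriers had 3 of 335, SLC1A5, SLC12A4 (4.02) and SLC25A43, a share of 0.896% beside 0.496% of all protein-coding genes. The only EIF4A2 peak lay within a small nucleolar RNA and the only SLC25A43 peak within a U1 copy, both in introns. They count for these coding genes because protein-coding genes were taken first. Transcripts known for RNA quadruplexes (0 of 28), histone genes (0 of 91), ZNF genes (0 of 475) and genes typical of other tissues (0 of 28) were also without a G4PID peak.

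G4PID peaks lay mainly in exons. Of 270 midpoints, 166 were exonic, 61.5% (95% Wilson interval 55.6 to 67.1%), against 11.5% of 3660 SF3B4 peaks (odds ratio 12.2, adjusted p = 5.67e-75 by the two-sided Fisher's exact test). When every annotated transcript counted, retained introns included, the odds ratio was 2.30, and with intron counted before exon it was 19.1. Without RNAs of many copies, an alternative chosen after seeing the data, the odds ratio was 13.7. The intron class also holds peaks in ribosomal RNA precursor and small RNAs, as given below. By region, G4PID peaks in coding sequence were in 35 genes, in 3′UTR in 28, in 5′UTR in 20, in noncoding exons in 12 and in introns in 61. The median log2 fold differed little between these regions, from 4.60 in noncoding exons to 5.02 in 5′UTR and in introns.

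**Figure D2:**
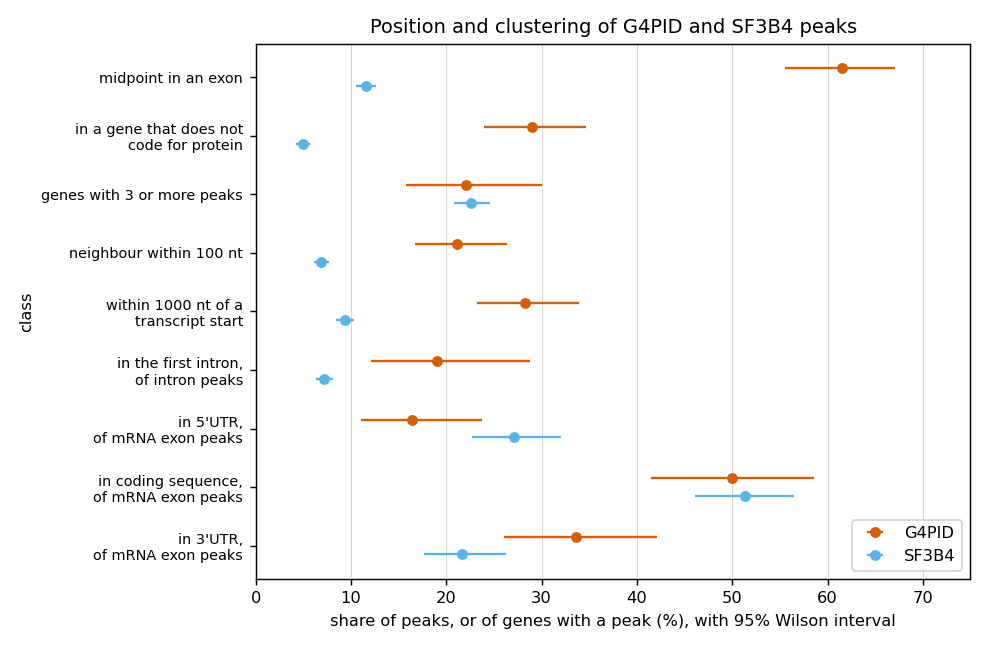
Points are shares of peaks (of genes, for the class of 3 or more peaks) in the G4PID and SF3B4 lists, with 95% Wilson intervals that cover counting error only. The exonic share is 61.5% for G4PID and 11.5% for SF3B4, while the shares of genes with 3 or more peaks, 22.0% and 22.6%, overlap.

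Along messenger RNA, 128 exonic peaks in 67 genes were spread over the whole length. Among them are the peaks of the 16S look-alikes MTRNR2L1 (3′UTR), MTRNR2L8 and MTRNR2L12 (both 5′UTR), which are annotated as protein-coding. Here and below they count as messenger RNA. Divided into 3 equal parts, the spliced transcripts held 46 in the first part, 40 in the middle and 42 in the last, with the median at 46.5% of the length. Coding sequence held 64 (50%), 3′UTR 43 (33.6%) and 5′UTR 21 (16.4%). The main transcripts of the same genes have 60.0% of their length in coding sequence, 31.8% in 3′UTR and 8.12% in 5′UTR. Some peaks were placed on another transcript of the gene. In the SF3B4 list the shares of 347 exonic peaks were 51.3% coding, 21.6% 3′UTR and 27.1% 5′UTR. The 3′UTR share was higher in the G4PID list (odds ratio 1.83, adjusted p = 0.0129 by the two-sided Fisher's exact test) and the 5′UTR share lower (0.528, adjusted exact p = 0.0204), while the coding share did not differ detectably (0.949, adjusted exact p = 0.941). With 1 peak per gene neither UTR difference passed, at odds ratios of 1.68 (adjusted exact p = 0.164) and 0.818 (adjusted exact p = 0.804). The 3′UTR difference also failed in peaks with a log2 fold of at least 4 (odds ratio 1.43, adjusted exact p = 0.305) and with a −log10 p of at least 10 (odds ratio 1.49, adjusted exact p = 0.316).

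**Figure D3:**
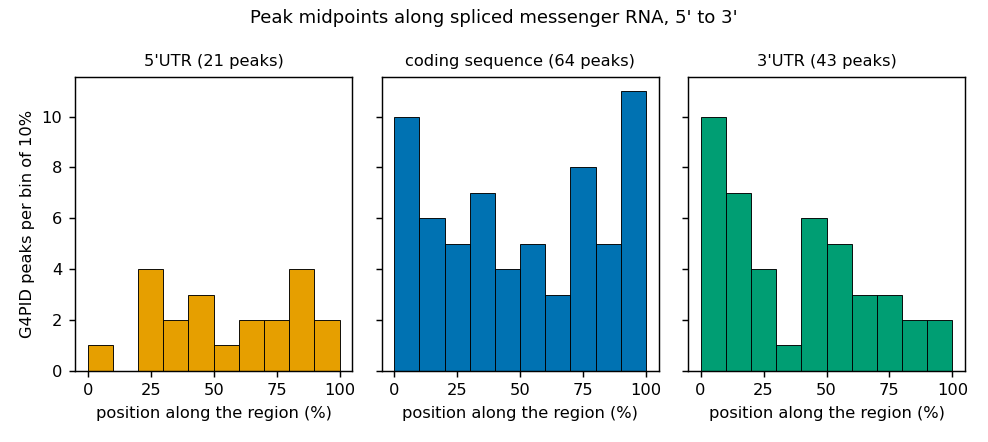
Bars count G4PID peaks by the position of their midpoint along the 5′UTR, coding sequence and 3′UTR, in bins of 10% from 5′ to 3′. Positions are on the gene's main transcript, or on another of its transcripts where the main one does not give that region. In 3 equal parts of each region, 3′UTR peaks number 22, 12 and 9, and coding peaks 24, 15 and 25.

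Within the coding sequence, cut into 3 equal parts, 24 peaks lay in the first part, 15 in the middle and 25 in the last. In the 3′UTR the same parts held 22, 12 and 9. A midpoint within 100 nt of the start codon was found for 17 peaks, among them those of MCL1, which encodes an antiapoptotic protein, LGALS1, which encodes a galectin, CYR61, CD44 and YBX3. Within 100 nt of the stop codon lay 16, among them peaks of KRT81, FOSL1, TNFRSF12A, AHNAK and VGF. The 5′UTR peaks had their midpoint 195 nt from the transcript start at the median (26 to 850 nt) and 166 nt before the start codon (9 to 669 nt). By exon, 69 of the 128 lay in the last exon of a transcript with several, 27 in the first, 28 in an internal one and 4 in transcripts of a single exon.

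A larger share of G4PID than of SF3B4 peaks was close to a transcript start. Within 1000 nt downstream of an annotated start of their gene lay 76 of 269 peaks (28.3%, 95% Wilson interval 23.2 to 33.9%), against 9.34% for SF3B4 (odds ratio 3.82, adjusted p = 1.23e-16 by the two-sided Fisher's exact test). Starts of shorter transcripts inside the gene counted too. From the outermost 5′ end of the gene the shares were 16.4% (44 of 269) and 4.62% (odds ratio 4.04). Without NEAT1 and MALAT1, with any start counted, they were 23.4% (56 of 239) and 9.32% (odds ratio 2.98). Over whole genes the median position was 60.2% of gene length for G4PID and 61.5% for SF3B4. Of 103 intron peaks, 84 lay in introns of the main transcript, and 16 of these (19%) in the first intron, in genes such as SQSTM1, MIR663AHG, FOSL1, MAFK and ATN1. The SF3B4 share was 7.15% (odds ratio 3.05, adjusted exact p = 0.000642). Among peaks with a −log10 p of at least 10, only 34 G4PID intron peaks remained and the difference did not pass (odds ratio 2.01, adjusted exact p = 0.241). These intron peaks lay 1020.5 nt from the nearest splice site at the median, and 15 lay within 100 nt of one. Exons of another annotated transcript covered 22 of the 103, including all 8 intron peaks of DHRS2, and 40 of the 103 belonged to genes that do not code for protein. Those 40 include 2 MALAT1 peaks and the 6 FP671120.1 and 3 FP236383.1 peaks, which lay in ribosomal RNA precursor. The 103 also hold the EIF4A2 peak within a small nucleolar RNA and the SLC25A43 peak within a small nuclear RNA copy. None of these is among the 16 in a first intron. The intron counts and splice-site distances thus do not describe introns of messenger RNA genes alone.

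G4PID peaks of the same gene stood close together. A neighbour within 100 nt, edge to edge, was found for 57 of 270 peaks (21.1%, 95% Wilson interval 16.7 to 26.4%) and for 6.83% of SF3B4 peaks (odds ratio 3.65, adjusted p = 9.96e-13 by the two-sided Fisher's exact test). Neighbours count each other, so this p is too small as a test of independent peaks. With genes as units, a comparison added after the data were seen, 15 of the 44 genes with 2 or more G4PID peaks had a pair within 100 nt (34.1%), against 111 of 799 for SF3B4 (13.9%, odds ratio 3.21, adjusted exact p = 0.00162). Over all genes with a peak it was 11.8% against 5.89% (odds ratio 2.14, adjusted exact p = 0.0194). Over peaks, the odds ratio was 6.38 for a gap of up to 50 nt, and 2.39 and 1.87 for gaps up to 500 and 1000 nt. It was 6.01 among peaks with a log2 fold of at least 4 and 5.95 among those with a −log10 p of at least 10, and 2.65 without NEAT1 and MALAT1. By contrast, the share of genes with 3 or more peaks did not differ detectably, 22.0% (28 of 127, interval 15.7 to 30.0%) against 22.6% (odds ratio 0.968, adjusted exact p = 1). Over the 142 pairs of neighbouring G4PID peaks of a gene the gap was 298.5 nt at the median. It was at most 100 nt in 34 pairs, at most 500 nt in 83 and over 5000 nt in 15.

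**Figure D4:**
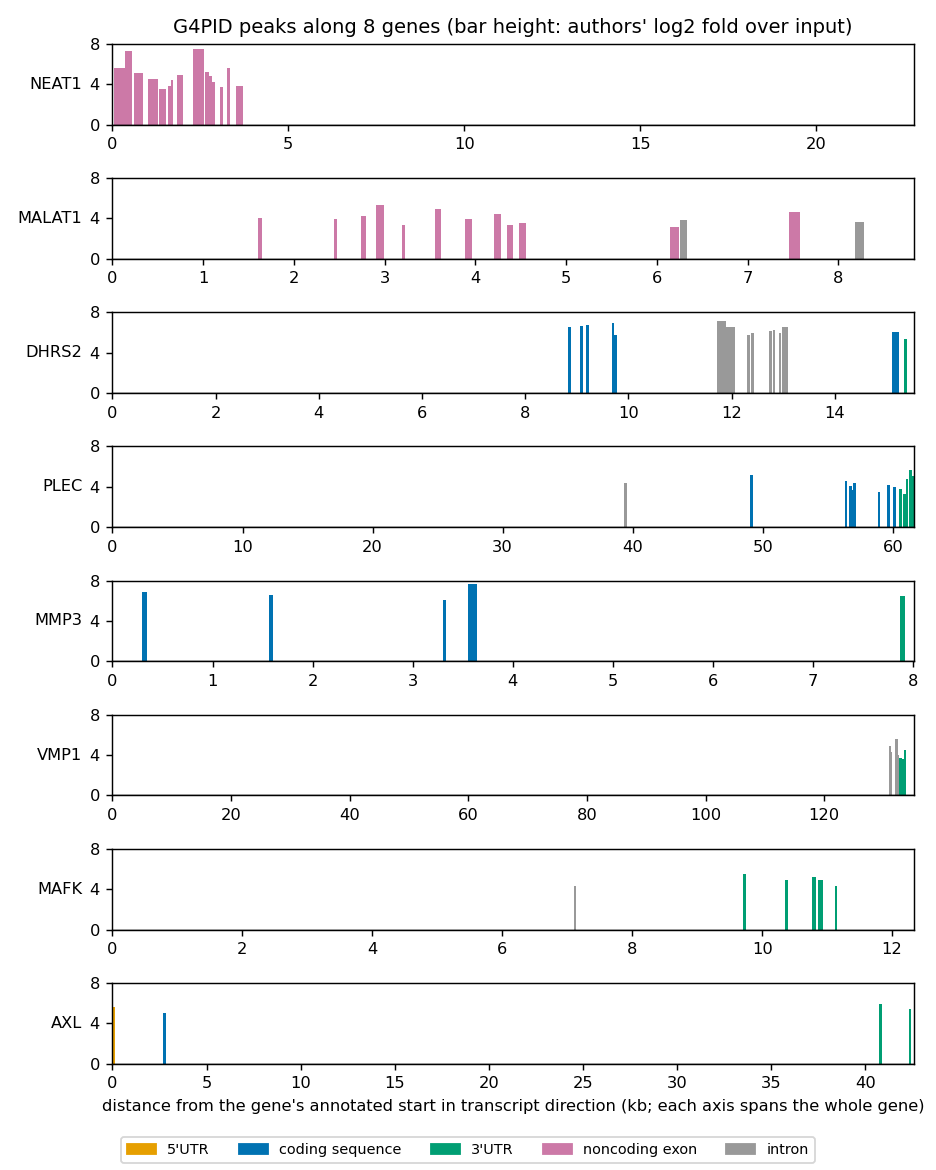
Each bar is a G4PID peak at its distance from the annotated gene start, in kb, with the authors' log2 fold over input as height and colour for transcript region. Each horizontal axis spans 1 whole gene and narrow peaks are drawn wider than their length so that they can be seen. NEAT1 peaks fill the 5′ part of the gene, VMP1 peaks its 3′ end, and AXL peaks both ends.

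The 57 peaks formed 23 runs in 15 genes, of which 17 were pairs. The longest was a run of 6 in NEAT1 (chr11:65423798-65424778, 981 nt, of which 734 nt were under peaks) at log2 folds between 3.51 and 4.91. NEAT1 had 2 further runs, of 4 peaks (chr11:65425052-65425682, up to 7.52) and of 3 (chr11:65422818-65423638, up to 7.28). Its neighbouring peaks were 70 nt apart at the median and never more than 273 nt, so that all 16 made a single run when gaps of up to 500 nt were allowed. That run spanned only 16.1% of the 22767 nt of NEAT1, at its 5′ end. Which of the NEAT1 transcripts the peaks came from was not tested. MALAT1 peaks were more widely spaced, 264 nt apart at the median, and spanned 75.6% of its 8829 nt, with 3 of 13 gaps within 100 nt.

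DHRS2 showed 2 blocks. The first 5 coding peaks (chr14:23638948-23639888) stood at 5.74 to 6.92, and the 8 intron peaks (chr14:23641825-23643199) at 5.74 to 7.10. The values of the coding and the intron block overlapped almost entirely. The remaining 2 peaks, 1 coding and 1 in the 3′UTR, were at the end of the gene, the latter lowest at 5.39. A run of 4 of the intron peaks had gaps of at most 100 nt (chr14:23642837-23643199).

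PLEC, MMP3 and AXL showed other layouts. The 14 PLEC peaks, 8 coding, 5 in the 3′UTR and 1 in an intron, spanned 22109 nt at the 3′ end of a gene of 61588 nt, with 7 of them inside 1887 nt around the stop codon. The 5 MMP3 peaks spanned 95.3% of the gene with no 2 closer than 226 nt, and 4 were coding. The 4 AXL peaks spanned 99.5% of 42564 nt, with 37982 nt between the coding peak and the first 3′UTR peak. TNFRSF12A, which encodes the TWEAK receptor, had 3 3′UTR peaks within 310 nt (4.39, 4.46 and 6.02), and MT2A 4 within 853 nt of a gene of only 1299 nt.

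Base composition of the peaks was described in windows of 61 nt around the midpoint. The window could be read for 185 of the 270 peaks, including 27 of the 103 in introns, so introns are under-represented. Sequence came mostly from exons of annotated transcripts, so a readable intron window lay mostly in an exon of another transcript. The intron values below are therefore not a fair sample of introns. Beside them stand transcript windows of the same length, and no test was made. These were tiled over the main transcript (longest coding sequence, then longest) of each annotated protein-coding and long intergenic noncoding gene. Noncoding exon windows among them thus come from long intergenic genes only. In 5′UTR the median GC content was 77.0% in 21 G4PID windows and 62.3% in transcript windows. In coding sequence it was 67.2% in 57 windows against 52.5%, and in 3′UTR 63.9% in 43 windows against 41.0%. In noncoding exons it was 45.9% for both. Of the 38 G4PID peaks in noncoding exons, NEAT1 held 16 and MALAT1 12, so this class describes mainly these RNAs. SF3B4 windows had 52.5%, 57.4% and 43.4% in the 3 regions of messenger RNA. The G4PID median was thus above both sets in each region of messenger RNA.

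**Figure D5:**
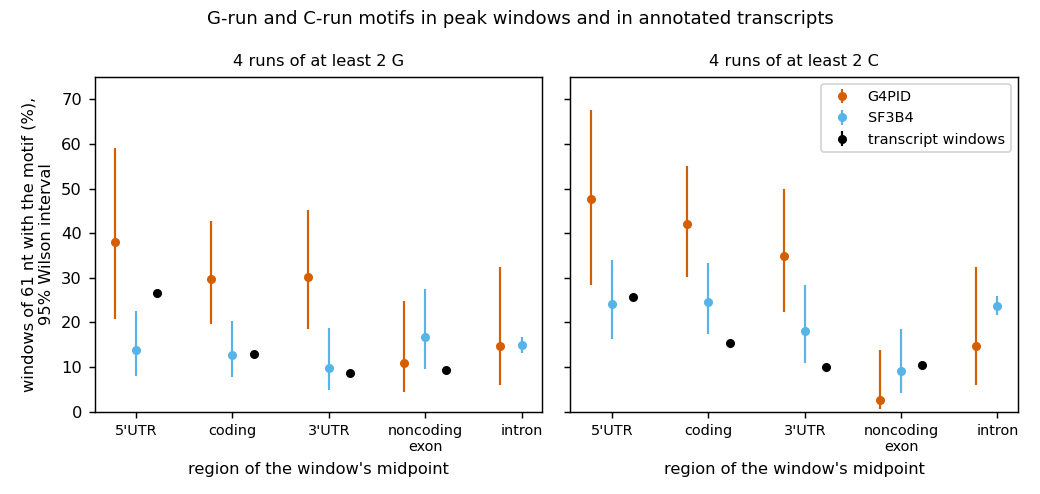
Points are shares of 61 nt windows with 4 runs of at least 2 G (left) or 2 C (right) and loops of 1 to 7 nt, by region, with 95% Wilson intervals. In coding sequence and 3′UTR, G4PID windows (29.8% and 30.2% with the G motif) stand above transcript windows (12.8% and 8.64%), and no transcript value is given for introns.

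The motif counted was 4 runs of at least 2 G, GG, separated by 1 to 7 nt, on the RNA strand, and the same with CC, which is the G motif of the opposite strand. Longer runs match it too. In 3′UTR windows the G motif was found in 30.2% (95% Wilson interval 18.6 to 45.1%), against 8.64% of transcript windows and 9.72% of SF3B4 windows. In coding sequence it was 29.8% (19.5 to 42.7%) against 12.8% and 12.7%. In 5′UTR it was 38.1% (20.8 to 59.1%) against 26.6% and 13.8%, with only 21 windows. In noncoding exons it was 10.8% (4.29 to 24.7%) against 9.29% of transcript windows and 16.7% of SF3B4 windows. In introns it was 14.8% of 27 G4PID windows and 14.8% of SF3B4 windows. The C motif was as common or more so in messenger RNA windows, with 34.9% in 3′UTR, 42.1% in coding sequence and 47.6% in 5′UTR, against 10.0%, 15.3% and 25.7% of transcript windows and 18.1%, 24.5% and 24.1% of SF3B4 windows. In noncoding exons the C motif was found in 2.7% (1 of 37 windows), against 10.5% of transcript windows and 9.09% of SF3B4 windows, and in introns in 14.8% against 23.7% of SF3B4 windows. Most G4PID peaks in noncoding exons were in NEAT1 and MALAT1, so both motif shares there describe mainly these RNAs. A match is a count of letters and not a folded quadruplex.

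The balance of G and C under the peaks is given for messenger RNA exons and for NEAT1 and MALAT1, without a test. Of 127 messenger RNA exon peaks whose sequence could be read whole, 57 had more G than C and 68 more C than G, with medians of 30.3% G and 34.9% C. Of the 30 peaks of NEAT1 and MALAT1, 27 had more G than C, with medians of 28.6% G and 16.4% C. NEAT1 peaks held 67 runs of at least 3 G in 11 of 16 peaks, and MALAT1 peaks 20 in 11 of 14. Among coding genes with at least 4 peaks read, MAFK had the highest median G content (47.2%), with runs of 3 G in 6 of 6 peaks. ZFP36L1 had the highest median C content (45.9%), with 0 of 4 peaks richer in G than in C. AXL (42.5% C) and CLU (38.8% C) were also C-rich, while PLEC had 37.9% G and 33.3% C. VMP1 peaks, at 16.4% G, had 1 run of 3 G in 7 peaks.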

How the data were processed

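The submitters' processing notes name cutadapt 3.4, STAR 2.7.0d, hg19 and hg38. No source used here gives the peak caller, its filters, the read depth or how multiply mapping reads and the 2 libraries were handled. The authors deposited 1 hg38 peak list per antibody without header. Of its value columns, the first was read as the authors' −log10 p-value and the second as the authors' deposited log2 fold against input.

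Peaks were assigned to GENCODE release 29 genes by midpoint and strand, with protein-coding genes taken first, then exons, and regions from the basic transcript set, coding sequence before UTR. The G4PID and SF3B4 lists were compared by 9 two-sided Fisher's exact tests with Benjamini-Hochberg adjustment and threshold 0.05. The test was tried only on simulated counts of independent peaks, which does not cover peaks that cluster in genes. Sequence was rebuilt from 206694 annotated transcripts, which disagreed at 0 bases. MTRNR2L peaks were aligned to mitochondrial 16S. Wilson intervals cover counting error only.

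The members, gene lists and comparisons were chosen with earlier results of these data known. Named genes are the 15 with the highest peak, those with at least 4 peaks, up to 4 highest per gene list and noncoding type, and the peaks of highest −log10 p; others were chosen after their values were seen. Python 3.11.15, numpy 2.4.6, scipy 1.17.1 and matplotlib 3.10.9 were used.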

Additional observations from a re-analysis of the deposited data

How the results depend on the processing

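Of 51 alternatives over the 9 comparisons between the lists, 42 kept the direction and the side of the threshold. The alternatives without NEAT1 and MALAT1, without DHRS2, without RNAs of many copies and with genes as units were chosen after seeing the data. For the share of genes with 3 or more peaks, which did not pass, the odds ratio turned to 1.06 with 5 or more peaks (adjusted exact p = 0.862) and to 1.71 for a log2 fold of at least 4 (adjusted exact p = 0.0564). The coding share, which did not pass either, turned to 1.46 for a log2 fold of at least 4 (adjusted exact p = 0.211) and 1.37 for a −log10 p of at least 10 (adjusted exact p = 0.410). The first-intron share no longer passed for a −log10 p of at least 10 (2.01), the 5′UTR share with 1 peak per gene (0.818), and the 3′UTR share with 1 peak per gene (1.68), a log2 fold of at least 4 (1.43) and a −log10 p of at least 10 (1.49). These alternatives test fewer peaks, and the cause was not tested otherwise. No paired analysis was possible because the lists give no value per library, and for the same reason no replicate could be left out. Depth is unknown, so the absence of a peak sets no limit on binding.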

Other observations

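The 2 deposited values moved together in fixed steps for many G4PID peaks. Taken as linear folds, 161 of 270 peaks (59.6%) were whole multiples of 2.32 within 0.02 of a step, with a median multiple of 17 and a range of 4 to 90. With the step divided by 2 or 3, a further 37 and 15 peaks were whole multiples, 78.9% in all. The step was fitted to the folds of the 4 most shared pairs of values, so peaks with those pairs match by construction. The most frequent pair, a log2 fold of 5.02 with a −log10 p of 6.27, was shared by 15 peaks in 15 genes. A log2 fold of 5.39 with a −log10 p of 8.26 was shared by 11 peaks in 10 genes, and 4.92 with 5.78 by 10 peaks in 10 genes. Peaks with the same pair have no rank among each other.

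The peaks were uneven over chromosomes. Chromosome 11 held 49 peaks (18.1%) in 11 genes, with NEAT1 and MALAT1 supplying 30 of them, and 5.27% of the SF3B4 list. Chromosome 8 held 31 (11.5%) in 11 genes, of which 14 were in PLEC, and 2.49% of the SF3B4 list. Chromosome 14 held 23 (8.52%) in 4 genes, of which 15 were in DHRS2, and 2.73% of the SF3B4 list.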
